A study of Rattus norvegicus with 6 samples.

Results

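The major histocompatibility complex (MHC) genes of the rat, called RT1, and the genes that prepare peptides for their products were examined in transplanted hearts of young and aged donors. The members were the 31 genes of the deposited expression table whose name begins with RT1-, together with B2m, Cd74, Ciita, Nlrc5, Tap1, Tap2, Tapbp, Psmb8, Psmb9, Psmb10, Psme1 and Psme2. They were 43 of the 22250 genes in the table. By their names, 21 of the RT1 genes were class I genes (the A, CE, M, N, S and T24 genes) and 10 were class II genes (the B, D and H genes), and the remaining 12 members were the genes listed by symbol.

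Class I molecules sit on nearly all nucleated cells and show short peptides from inside the cell to CD8 T cells. The peptides are cut by the proteasome, carried into the endoplasmic reticulum by the TAP transporter and placed on a heavy chain that is held by the light chain B2m. Class II molecules are made mainly by dendritic cells, macrophages and B cells and show peptides from engulfed proteins to CD4 T cells, with the invariant chain Cd74 guarding the groove until the endosome. In a transplanted heart these molecules are best known as the main targets of rejection between unlike animals.

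Hearts came from 3 young donors (10 weeks; animals 3, 13 and 15) and 3 aged donors (1 year; animals 4, 7 and another animal numbered 3), all WT Sprague-Dawley rats, and were placed heterotopically into recipient rats after cold storage. RNA was taken from LV myocardium on postoperative day 1, so every heart, young donor hearts included, had been stored and transplanted. Each library is therefore 1 graft, in which transcripts of the donor and of recipient cells that entered the graft cannot be told apart. The study describes its donors and recipients as syngeneic and states that no immunosuppressant was given. The labels give no RT1 haplotype.

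Between 21457509 and 24560869 reads were counted on genes per library. Values written CPM below are counts scaled to a common library size of 1e6 reads, with factors from 0.733 to 1.24 set by TMM (trimmed mean of M values), and 3 reads corresponded to 0.0985 to 0.191 CPM. Mitochondrial genes held 11.88% to 21.69% of the reads of a young donor heart and 6.56% to 10.31% of those of an aged one. The summed level of 7 cardiomyocyte markers was 63500 and 71800 CPM in young animals 3 and 13 but 8590 CPM in young animal 15, beside 91.2, 4830 and 3100 CPM in aged animals 3, 4 and 7. Young animal 15 thus lay near the aged donor hearts, and aged animal 3 almost lacked transcripts of the labelled tissue, with Myh6, the main rodent myosin heavy chain, at 13.6 CPM. Results that rest on these hearts are given with and without them.

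All 31 RT1 genes lay on chromosome 20 of the rat build Rnor_6.0, and so did the TAP and immunoproteasome genes Psmb9 (positions 3973420 to 3978845), Tap1 (3979035 to 3989669), Psmb8 (3990613 to 3993769) and Tap2 (3995544 to 4009587), which stood in a row between the class II genes RT1-DMb and RT1-DOb. The class I genes were more spread out, from RT1-CE10 at 154074 to RT1-A1, which ended at 5421098. The span of 12 of the 21 class I genes overlapped another gene of the table, against 0 of the 10 class II genes. RT1-A1, for example, spans RT1-A2, and RT1-CE4 lies across several CE genes, RT1-CE7 on the same strand among them. Class I genes are also close copies of each other and the use of strand and of shared reads in the counting is not given in the sources used here, so the division of reads among class I genes is uncertain.

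Promoter sequence of RefSeq (build GRCr8, 250 bases before to 50 bases after the annotated start) was found by symbol for 37 of the 43 members. The Y box, bound by NF-Y, is part of the conserved promoter element of class II genes on which the transactivator Ciita acts, and was searched as TGATTGG. The interferon-stimulated response element (ISRE), bound by interferon regulatory factors, was searched by the loose core TTTCNNTT, and the gamma-activated site (GAS), through which interferon gamma acts, as TTCNNNGAA. Each was searched on both strands, and no match to a motif overlapped a match to another motif. The following windows are shown because class I and class II promoters differed in how many held these letters. Capitals mark the motif, and each sequence reads 5′ to 3′ along the gene's strand.
RT1-Da, Y box, GRCr8 chr20:4515314-4515380, + strand: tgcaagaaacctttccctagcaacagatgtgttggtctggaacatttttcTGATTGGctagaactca
RT1-Ba, Y box, GRCr8 chr20:4576962-4577028, + strand: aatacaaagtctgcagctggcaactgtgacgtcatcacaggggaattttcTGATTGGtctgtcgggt
RT1-Bb, Y box, GRCr8 chr20:4604165-4604231, - strand: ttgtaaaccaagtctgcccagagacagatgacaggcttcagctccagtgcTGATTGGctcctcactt
RT1-Db1, Y box, GRCr8 chr20:4560228-4560294, - strand: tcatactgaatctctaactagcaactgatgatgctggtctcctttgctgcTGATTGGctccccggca
RT1-A2, ISRE-like, GRCr8 chr20:4872691-4872750, + strand: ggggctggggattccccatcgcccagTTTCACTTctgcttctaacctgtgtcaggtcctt
RT1-CE4, ISRE-like, GRCr8 chr20:3509296-3509355, - strand: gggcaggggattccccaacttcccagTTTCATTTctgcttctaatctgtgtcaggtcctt
RT1-CE10, ISRE-like, GRCr8 chr20:3385120-3385179, - strand: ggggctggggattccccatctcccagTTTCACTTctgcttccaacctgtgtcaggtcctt
RT1-S3, ISRE-like, GRCr8 chr20:2675390-2675449, + strand: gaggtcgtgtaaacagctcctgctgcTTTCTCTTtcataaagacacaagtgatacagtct
RT1-T24-3, ISRE-like in reverse, GRCr8 chr20:2722906-2722965, + strand: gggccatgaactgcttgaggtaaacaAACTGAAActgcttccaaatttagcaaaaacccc
RT1-T24-4, ISRE-like in reverse, GRCr8 chr20:2689171-2689230, + strand: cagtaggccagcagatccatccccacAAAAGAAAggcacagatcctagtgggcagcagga
B2m, ISRE-like in reverse, GRCr8 chr3:129549156-129549215, + strand: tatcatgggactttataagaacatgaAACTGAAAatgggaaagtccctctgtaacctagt
Tap1, ISRE-like, GRCr8 chr20:4668631-4668690, - strand: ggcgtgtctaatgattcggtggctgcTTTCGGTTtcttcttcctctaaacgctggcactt
Psmb10, ISRE-like in reverse, GRCr8 chr19:50743330-50743389, - strand: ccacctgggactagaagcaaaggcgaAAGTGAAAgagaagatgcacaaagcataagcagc

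The Y box was present in 9 of the 9 class II promoters found, in the forward orientation each time and starting between 45 bases (RT1-Ba) and 119 bases (RT1-Db2) before the start. It was present in 9 of 18 class I promoters, in 1 of 10 promoters of the other members and in 7.06% of all 33469 promoters. The ISRE-like core was distributed differently, with 15 of 18 class I promoters, 9 of 10 of the other members and 1 of 9 class II promoters, against 26.4% of all promoters. The GAS-like letters were rare, in 1 of 18, 1 of 10 and 0 of 9 of these promoters against 8.87% of all promoters. Within class I, the A and CE windows above are nearly the same sequence around their ISRE-like core, whereas the windows of RT1-T24-3 and RT1-T24-4 hold a match only in the reverse orientation and in other surroundings. These matches describe letters and no binding was measured.

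Of the 43 members, 33 passed the filter on low counts and were tested, 15 of class I, 7 of class II and 11 of the others. The 10 that did not pass were RT1-CE1, RT1-CE3, RT1-M2, RT1-M4, RT1-M5 and RT1-S2 of class I, RT1-DMa, RT1-Db2 and RT1-Ha of class II, and Psme1. Their highest count in any heart was 29 reads, for RT1-CE3, and RT1-M4 and RT1-M5 were at 0 reads in all 6 hearts, which allows at most 0.0985 to 0.191 CPM per library by counting error alone. Psme1, a subunit of the PA28 proteasome activator, had 0 to 2 reads although its partner Psme2 was well expressed, and its span overlaps that of Emc9 in this annotation.

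The difference between the donor groups was tested with the quasi-likelihood F test of edgeR, and a gene was counted as changed by the limits that the study uses, a fold change over 1.5 or under 0.67 at an unadjusted p under 0.05. By these limits 13.2% of the 13784 genes tested were higher and 19.0% were lower in aged donor hearts. After Benjamini-Hochberg adjustment 0 genes had an adjusted p under 0.05 with edgeR, against 4731 with an unadjusted p under 0.05. DESeq2 gave 3592 such genes and limma-voom 0. The smallest adjusted p by edgeR was 0.0916, among all genes as among the members. The words higher, lower, rose and fell below refer to the study's limits and carry that reservation.

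Of the class I genes, RT1-CE7 and RT1-CE4, of the CE region, were higher in aged donor hearts, and the nonclassical genes RT1-T24-1, RT1-T24-3 and RT1-T24-4 were lower. This made 2 of 15 higher and 3 of 15 lower, shares that lie near the 13.2% and 19.0% of all genes. The spans of RT1-CE7 and RT1-CE4 overlap on the same strand, so their changes may not be separate observations. The T24 genes lie close together, between positions 3189473 and 3282523, and the uncertain division of reads holds for them too. Their decreases may likewise not be separate observations. By CPM, in 4 of the 15 all aged donor hearts were above all young donor hearts and in 3 all were below. This was also so in 21.0% and 20.6% of all genes tested.

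The level of RT1-CE7 was 6.96, 7.44 and 10.9 CPM in young animals 3, 13 and 15 and 49.7, 22 and 22.8 CPM in aged animals 3, 4 and 7. All aged donor hearts were above all young ones, and aged animal 3 was the highest. The log2 fold change was 1.90 ± 0.40 (SE, n = 3 and 3; edgeR, adjusted p = 0.0916). Apart from the use of adjusted p-values, RT1-CE7 kept the call under each alternative tried.

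The level of RT1-CE4 was 10.8, 12.6 and 20.8 CPM in young donor hearts and 40.9, 21.9 and 29.5 CPM in aged donor hearts. The groups did not overlap, but young animal 15 and aged animal 4 nearly met. It rose by a log2 fold change of 1.06 ± 0.35 (edgeR, adjusted p = 0.103), and it lost the call without aged animal 3 (log2 fold change 0.81) or without young animal 3 or 13 (0.88 and 0.96).

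RT1-A2, a classical class I heavy chain, was at 6.96, 9.22 and 22.6 CPM in young donor hearts and at 27.3, 21.2 and 32.9 CPM in aged donor hearts. Young animal 15 lay among the aged donor hearts, so the groups overlapped, and the difference did not pass (log2 fold change 1.06 ± 0.47, edgeR, adjusted p = 0.161). Without young animal 15 the log2 fold change of RT1-A2 was 1.79 ± 0.27 (edgeR, adjusted p = 0.00448), and with all hearts it passed by DESeq2 and limma-voom (1.06 and 1.17). Here and below, values without young animal 15 come from a fit in which 6815 of 14109 genes had an edgeR adjusted p under 0.05. Each heart was left out in turn, but this heart was singled out because it lay near the aged donor hearts in these data. Larger differences and smaller p-values without it carry that choice.

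The T24 genes went the other way. RT1-T24-3 was at 18.2, 14.6 and 21.6 CPM in young donor hearts and at 7.16, 4.89 and 7.24 CPM in aged donor hearts. The groups were far apart and the spread within each was small (18.2 ± 3.51 against 6.43 ± 1.33 CPM, mean ± SD, n = 3 each). RT1-T24-3 had a log2 fold change of -1.50 ± 0.27 (edgeR, adjusted p = 0.0916), and among the called members only this gene and RT1-CE7 kept the call under each alternative other than adjusted p-values.

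RT1-T24-4 was at 42.7, 39.4 and 46.1 CPM in young donor hearts and at 17.9, 28.2 and 9.85 CPM in aged donor hearts. In CPM, young donor hearts, animal 15 included, lay close together and all above the aged ones. In the deposited FPKM values, which use library totals without TMM, aged animal 4 (19.5) lay above young animal 13 (17.6). The log2 fold change of RT1-T24-4 was -1.19 ± 0.38 (edgeR, adjusted p = 0.0985). Its call was lost without aged animal 3 (log2 fold change -1.16) and under scaling by library totals (log2 fold change -0.77).

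RT1-T24-1 was lower in level, at 3.45, 4.32 and 9.17 CPM in young donor hearts and at 2.79, 2.73 and 1.34 CPM in aged donor hearts. Its groups did not overlap in CPM, with young animal 15 the highest. In FPKM they did overlap, with aged animal 3 (3.03) above young animals 3 and 13 (2.33 and 2.77). The log2 fold change of -1.31 ± 0.50 (edgeR, adjusted p = 0.127) was not past the limits without young animal 15 (-0.73), without any 1 of the aged donor hearts, of which leaving out animal 7 gave the smallest change (-1.03), or under scaling by library totals (-0.96).

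The nonclassical gene RT1-S3 was at 45.3, 40.4 and 83.1 CPM in young donor hearts and at 48.1, 51.0 and 23.8 CPM in aged donor hearts. The highest and the lowest value came from opposite groups and the others were mixed (log2 fold change -0.46 ± 0.40, edgeR, adjusted p = 0.42). RT1-N3 was at 15.8, 14.5 and 28.8 CPM in young donor hearts and at 31.4, 26.7 and 23.1 CPM in aged donor hearts, again with young animal 15 among the aged donor hearts (log2 fold change 0.46 ± 0.31, edgeR, adjusted p = 0.314). Without young animal 15 RT1-N3 passed at 0.87 ± 0.19 (edgeR, adjusted p = 0.0133). The other 7 class I genes tested, RT1-A1, RT1-CE5, RT1-CE10, RT1-M3-1, RT1-M6-1, RT1-M6-2 and RT1-N2, had log2 fold changes from -0.29 (RT1-M6-2) to 1.79 (RT1-A1) and none passed the limits by edgeR. RT1-A1 passed by limma-voom (log2 fold change 2.34), RT1-CE5 and RT1-M3-1 passed under scaling by library totals (1.13 and 1.03), and RT1-A1, RT1-CE10 and RT1-M3-1 passed without young animal 15 (3.72, 1.5 and 0.93).

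**Figure D1:**
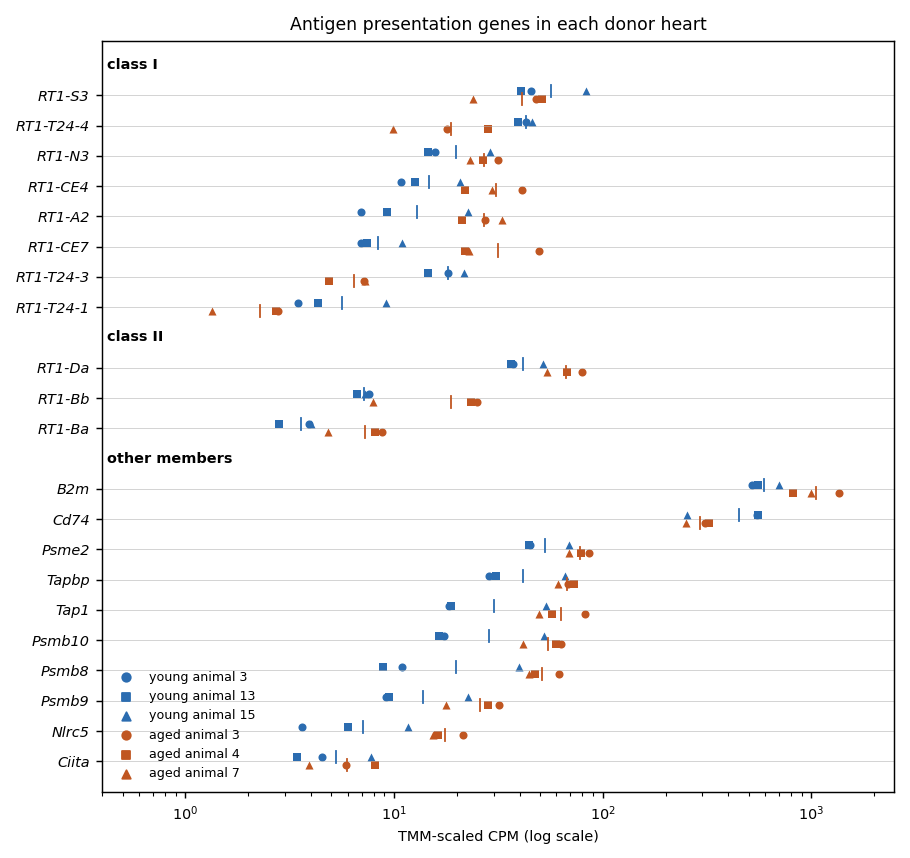
TMM-scaled CPM (horizontal log axis) of the members with a mean of at least 10 CPM and of RT1-T24-1, RT1-Ba and Ciita, with 1 row per gene. Blue symbols are the 3 young donor hearts and orange symbols the 3 aged donor hearts, the shape gives the animal, and the vertical bars are group means. The T24 genes have all blue symbols to the right of the orange ones, RT1-CE7 has the reverse, and young animal 15 (blue triangle) often stands among the orange symbols.

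Of the class II genes, the α chain genes RT1-Da and RT1-Ba and the β chain gene RT1-Bb were higher in aged donor hearts, and 0 of 7 were lower by edgeR, DESeq2 or limma-voom, so that 3 of 7 were higher beside 13.2% of all genes tested. By CPM, in 3 of the 7 all aged donor hearts were above all young ones, and in 1, RT1-DOa, all were below. This stands beside 21.0% and 20.6% of all genes tested. In FPKM, RT1-DOa overlapped, with aged animals 3 and 4 (0.80 and 0.82) above young animals 3 and 13 (0.75 and 0.59).

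RT1-Da, the α chain of the rat counterpart of human HLA-DR, was at 37.2, 36.2 and 51.7 CPM in young donor hearts and at 79.2, 67.2 and 54.0 CPM in aged donor hearts. The groups did not overlap, although young animal 15 and aged animal 7 were close. RT1-Da rose by a log2 fold change of 0.68 ± 0.23 (edgeR, adjusted p = 0.107).

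RT1-Ba and RT1-Bb encode the chains of the counterpart of HLA-DQ. RT1-Ba was at 3.93, 2.80 and 4.01 CPM in young donor hearts and at 8.74, 8.11 and 4.83 CPM in aged donor hearts. RT1-Bb was at 7.62, 6.61 and 7.23 CPM in young donor hearts and at 25.0, 23.4 and 7.97 CPM in aged donor hearts. In both genes aged animals 3 and 4 were well above the young donor hearts and aged animal 7 was just above them. RT1-Ba had a log2 fold change of 1.01 ± 0.33 (edgeR, adjusted p = 0.102) and RT1-Bb of 1.39 ± 0.44 (edgeR, adjusted p = 0.099). The 3 class II calls were each lost without aged animal 3 and each lost without aged animal 4 or young animal 13, and RT1-Da also lost it without young animal 3 and RT1-Bb by limma-voom (log2 fold change 1.23).

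The other class II genes tested did not pass by edgeR with all 6 hearts. RT1-Db1, a β chain gene that pairs with RT1-Da, had a log2 fold change of 0.52 ± 0.26 (edgeR, adjusted p = 0.2), and passed under scaling by library totals (0.92) and without young animal 15 (0.76). RT1-DMb, RT1-DOb and RT1-DOa, whose products edit class II peptides or restrain that editing, were all under 2 CPM in every heart and had log2 fold changes of 0.98, 0.47 and -0.40. RT1-DMb passed without young animal 15 (2.87).

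The class II levels came from tissue in which markers of cells that make class II also differed. The 6 dendritic cell markers summed to 43.6, 45.8 and 99.3 CPM in young donor hearts and to 154, 125 and 106 CPM in aged donor hearts. Most of the rise in that sum was Itgax, at 8.95, 9.47 and 68.7 CPM in young donor hearts and 111, 85.7 and 80.0 CPM in aged ones. Itgax did not pass the limits. Of the 6 markers 1 was higher (Ccr7) and 0 were lower, and Zbtb46 alone had a negative log2 fold change (-0.54). The 6 macrophage markers summed to 190, 183 and 810 CPM and to 2120, 1290 and 844 CPM, with 3 of 6 higher (Adgre1, Cd163 and Mrc1). The 5 B cell markers summed to 1.07 to 3.43 CPM in young donor hearts and to 1.21 to 7.39 CPM in aged ones, with 0 of the 3 tested past the limits. These counts stand beside 13.2% higher and 19.0% lower of all genes tested. No marker of these 3 lists was at 0 in all hearts, and their part in the class II result was not tested. In whole tissue, more cells of a type and more RNA per cell cannot be told apart.

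**Figure D2:**
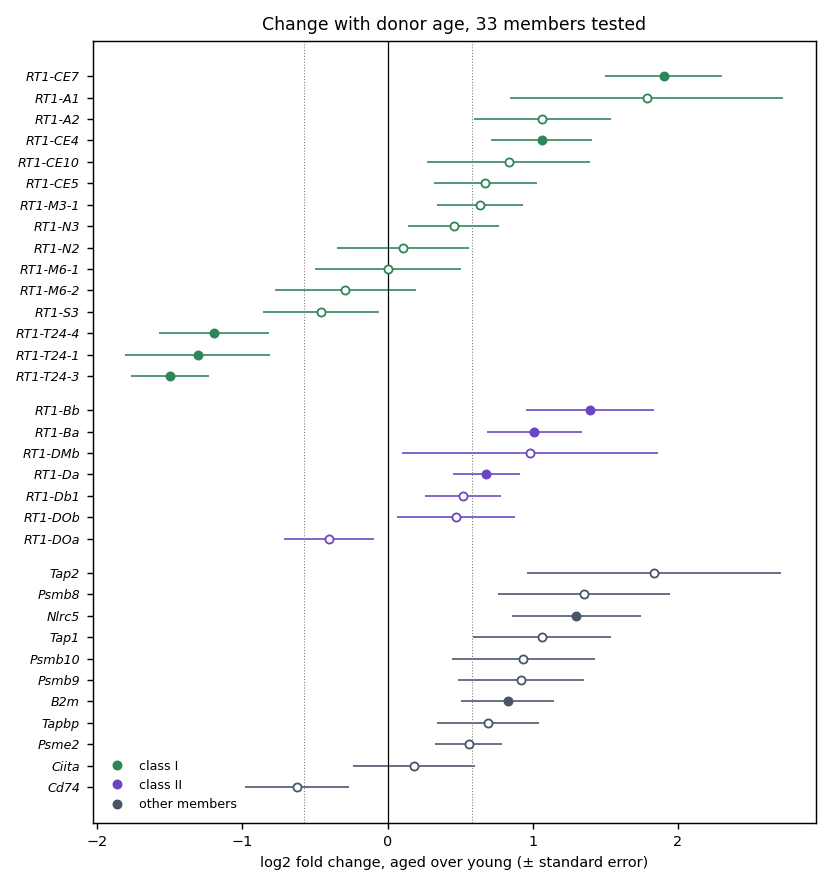
Log2 fold change of aged over young donor hearts (horizontal axis) with its standard error (bars) for the 33 members tested, grouped into class I, class II and other members. Filled points passed the study's limits, open points did not, and dotted lines mark the fold limits. Class I runs from -1.50 for RT1-T24-3 to 1.90 for RT1-CE7, while RT1-DOa and Cd74 are the only negative points of the class II and other groups.

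Compared side by side, the median log2 fold change was 0.46 over the 15 class I genes, 0.68 over the 7 class II genes and 0.92 over the 11 other members, beside 0.02 over all genes tested. Positive values were found for 10 of 15 class I, 6 of 7 class II and 10 of 11 other members. Scaling by library totals in place of TMM raised the median of all genes to 0.46 and that of class I, class II and the other members to 0.82, 1.09 and 1.25, so that each list moved together with all genes. The class I median was 0.28 without young animal 13, 0.29 without aged animal 3 and 0.68 without young animal 15. The gap between the classes varied with the filter on low counts, at 0.17 for class I against 0.95 for class II with no filter and 0.54 against 0.59 with at least 1 CPM in 3 hearts. The difference between the 2 classes was not tested as a list.

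On a scale per gene length, the FPKM values of all class I genes summed to 75.2, 66.1 and 168 in young animals 3, 13 and 15 and to 171, 122 and 106 in aged animals 3, 4 and 7. The class II genes summed to 18.0, 15.8 and 33 FPKM in young donor hearts and to 61.9, 50.4 and 36.7 FPKM in aged donor hearts. Class I thus exceeded class II in every heart. The class II sums did not overlap between the groups, whereas young animal 15 had nearly the highest class I sum.

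Within each heart, which needs no scaling between libraries, the class I sum was 4.18, 4.18 and 5.09 times the class II sum in young donor hearts and 2.77, 2.42 and 2.88 times in aged donor hearts. The 2 groups did not overlap, and young animal 15 was not among the aged donor hearts in this measure. The class I sum includes the T24 genes, whose division of reads is uncertain, and the separation of the ratio depends on them. The make-up of class I differed as well. The 3 T24 genes held 41.3%, 40.8% and 32.0% of the class I FPKM in young donor hearts and 12.9%, 21.0% and 12.8% in aged donor hearts, and the A and CE genes together held 12.8%, 15.2% and 18.8% against 41.8%, 30.0% and 45.6%. These groups of class I genes were formed after the values had been seen, so the shares are a description with no test.

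**Figure D3:**
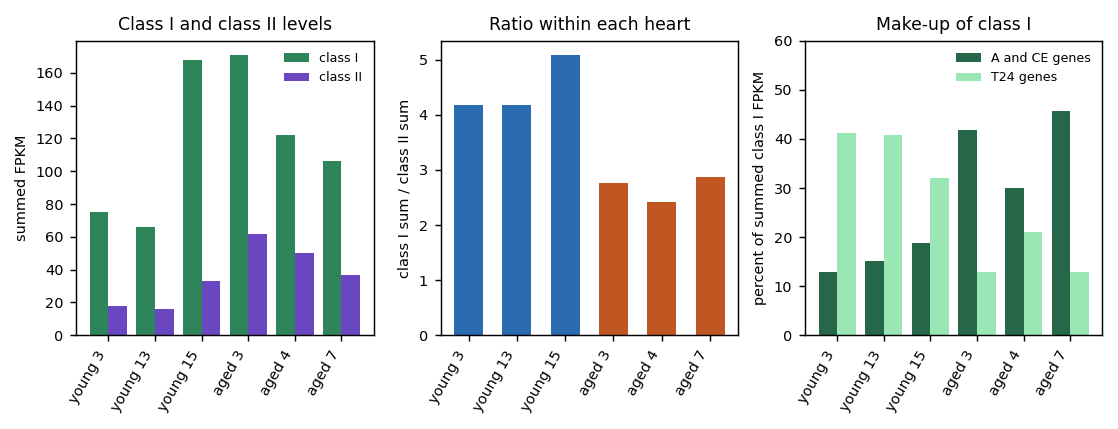
Left, summed FPKM of class I and class II genes in each heart; middle, the class I sum divided by the class II sum in each heart; right, the percent of the class I sum held by the A and CE genes and by the T24 genes. Each bar is 1 heart. The ratio is 4.18 or more in the young donor hearts and 2.88 or less in the aged ones, and the T24 genes outweigh the A and CE genes in each young donor heart and the reverse holds in each aged one.

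Among the other members, B2m and Nlrc5 were higher in aged donor hearts and none was lower, which made 2 of 11 higher beside 13.2% of all genes. In 5 of the 11 (B2m, Nlrc5, Psmb8, Psme2 and Tap2) all aged donor hearts were above all young ones, beside 21.0% of all genes tested. These genes serve mostly the class I route, and the class II partners Cd74 and Ciita did not pass.

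B2m, the light chain shared by class I molecules, was at 522, 554 and 703 CPM in young donor hearts and at 1351, 813 and 992 CPM in aged donor hearts. All aged donor hearts were above the young ones, and the log2 fold change was 0.83 ± 0.32 (edgeR, adjusted p = 0.131). It lost the call without aged animal 3 (log2 fold change 0.61) and also without aged animal 7 or young animal 3 or 13. Per length, the level of B2m exceeded that of Cd74 in young animal 15 and the 3 aged donor hearts (418 to 917 FPKM against 198 to 276 FPKM), and the order was the reverse in young animals 3 and 13 (220 and 222 FPKM against 303 and 291 FPKM).

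Nlrc5, the transactivator of class I genes, was at 3.63, 6.04 and 11.7 CPM in young donor hearts and at 21.4, 16.2 and 15.3 CPM in aged donor hearts. The groups did not overlap and young animal 15 was again the nearest to the aged donor hearts. It rose by a log2 fold change of 1.3 ± 0.45 (edgeR, adjusted p = 0.109), a call that was lost without young animal 13, aged animal 3 or aged animal 4.

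Ciita, the transactivator of class II genes, was at 4.54, 3.43 and 7.76 CPM in young donor hearts and at 5.88, 8.11 and 3.91 CPM in aged donor hearts. The groups were mixed throughout. Its log2 fold change was 0.18 ± 0.42 (edgeR, adjusted p = 0.771) and turned negative, to -0.05 and -0.10, without young animal 13 or aged animal 4.

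Cd74, the invariant chain of class II, had the only negative log2 fold change among the other members. It was at 548, 553 and 253 CPM in young donor hearts and at 309, 321 and 249 CPM in aged donor hearts. Young animal 15 was within the range of the aged donor hearts, and young animals 3 and 13 were far above it. Its log2 fold change was -0.62 ± 0.36 (edgeR, adjusted p = 0.244), and -0.09 under scaling by library totals. Without young animal 15 it was -0.87 ± 0.20 (edgeR, adjusted p = 0.0159).

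The transport genes resembled each other across the hearts. Tap1 was at 18.3, 18.8 and 53.2 CPM in young donor hearts and at 82.6, 56.9 and 49.7 CPM in aged donor hearts. Tapbp, the bridge between TAP and the heavy chain, was at 28.5, 30.7 and 65.9 CPM and at 68.5, 72.6 and 60.9 CPM. In both genes young animals 3 and 13 were low and young animal 15 stood among the aged donor hearts. Tap1 had a log2 fold change of 1.06 ± 0.48 (edgeR, adjusted p = 0.164) and Tapbp of 0.69 ± 0.35 (edgeR, adjusted p = 0.202). Without young animal 15 Tap1 passed at 1.80 ± 0.26 (edgeR, adjusted p = 0.00369), and it also passed by DESeq2 and limma-voom with all hearts. Tap2, which pairs with Tap1 to form the transporter, was counted with only 0, 5 and 11 reads in young donor hearts and 35, 31 and 15 reads in aged donor hearts. The log2 fold change of 1.84 ± 0.88 rests on few reads (edgeR, adjusted p = 0.183), and it passed by DESeq2 (1.86) and without young animal 15 (2.62).

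The immunoproteasome subunits Psmb8, Psmb9 and Psmb10 replace the catalytic subunits Psmb5, Psmb6 and Psmb7 of the standard proteasome. Psmb8 was at 10.9, 8.84 and 39.9 CPM in young donor hearts and at 61.4, 47.2 and 44.3 CPM in aged donor hearts. Psmb9 was at 9.14, 9.47 and 22.5 CPM and at 31.9, 28.1 and 17.8 CPM. Psmb10 was at 17.4, 16.3 and 52.2 CPM and at 63.2, 59.7 and 41.7 CPM. The aged donor hearts were all above the young ones only for Psmb8, because young animal 15 was above aged animal 7 in the other two. The log2 fold changes were 1.35 ± 0.59, 0.92 ± 0.43 and 0.94 ± 0.49 (edgeR, adjusted p = 0.159, 0.179 and 0.213). Psmb8 passed by DESeq2 and limma-voom (1.35 and 1.59), and all 3 passed without young animal 15, Psmb9 at 1.52 ± 0.29 (edgeR, adjusted p = 0.00861). Psme2, of the PA28 activator, was at 44.9, 44.5 and 69.2 CPM and at 86.1, 78.5 and 69.2 CPM, with young animal 15 and aged animal 7 nearly equal. Its log2 fold change of 0.56 ± 0.23 had an unadjusted p just under the limit but fell short of the fold limit (edgeR, adjusted p = 0.145), while it passed both under scaling by library totals (0.95) and without young animal 15 (0.84).

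The ratio of each immunoproteasome subunit to the subunit it replaces was taken within each heart from FPKM values. Psmb8 to Psmb5 was 0.184, 0.14 and 0.749 in young donor hearts and 1.73, 0.858 and 0.931 in aged donor hearts. The groups did not overlap, and the mean log2 ratio was 2.05 higher in aged donor hearts (-1.90 ± 1.3 in young, 0.15 ± 0.55 in aged, SD, n = 3 each; two-sided exact permutation p = 0.1, the smallest that 3 against 3 hearts can give). Psmb9 to Psmb6 was 0.0567, 0.0558 and 0.152 in young donor hearts and 0.218, 0.132 and 0.119 in aged ones, with a log2 difference of 0.95 (exact permutation p = 0.3). Psmb10 to Psmb7 was 0.759, 0.570 and 2.71 in young donor hearts and 4.64, 2.42 and 2.18 in aged ones, with a log2 difference of 1.46 (exact permutation p = 0.3). In the latter pairs young animal 15 was above 2 of the aged donor hearts. Psmb5, Psmb6 and Psmb7 themselves had log2 fold changes of -0.35, 0.09 and -0.30 and did not pass the limits.

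Class II chains were also set against their invariant chain within each heart, a ratio chosen after the values had been seen. RT1-Da to Cd74 was 0.0378, 0.0365 and 0.113 in young donor hearts and 0.142, 0.116 and 0.120 in aged donor hearts. RT1-Ba to Cd74 was 0.00733, 0.00517 and 0.0162 in young donor hearts and 0.0289, 0.0258 and 0.0198 in aged donor hearts. Neither ratio overlapped between the groups, although young animal 15 was close to the aged donor hearts for RT1-Da. The log2 differences of 1.22 and 1.53 are given with no test, because the ratios were picked on these values. B2m to Cd74, picked in the same way and not drawn, did overlap. It was 0.725, 0.763 and 2.11 in young donor hearts and 3.33, 1.93 and 3.03 in aged donor hearts.

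**Figure D4:**
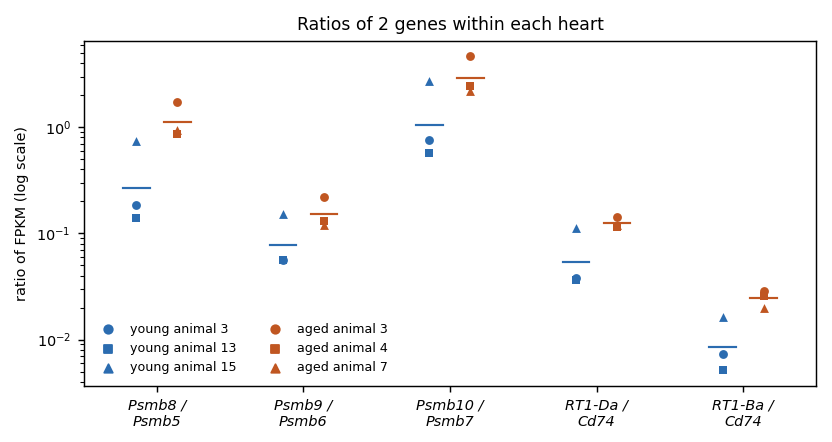
Ratio of the FPKM values of 2 genes within each heart (vertical log axis) for Psmb8 to Psmb5, Psmb9 to Psmb6, Psmb10 to Psmb7, RT1-Da to Cd74 and RT1-Ba to Cd74. Blue symbols are young and orange symbols aged donor hearts, and lines mark the mean of the log ratios in each group. Young animals 3 and 13 have the lowest 2 values in every pair, and young animal 15 is the highest young donor heart in every pair.

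Single hearts decided how many members passed, and also how many of all genes did. Without young animal 13, or without aged animal 3, 0 class II and 0 other members were higher, and without aged animal 4, 0 class II members and 1 other member. Over all genes tested, 862 of 14060, 1048 of 14033 and 1404 of 14089 were higher in these settings. With all 6 hearts it was 1815 of 13784. Without young animal 15 the counts rose among the members and among all genes. Then 14109 genes were tested, and 26.9% were higher and 24.2% were lower by the same limits. Of the members, 7 of 17 class I genes, 5 of 8 class II genes and 9 of 11 others were then higher, and 2, 0 and 1 were lower. Psmb8 had a log2 fold change of 2.41 ± 0.22 (edgeR, adjusted p = 0.00145), Psmb10 of 1.74 ± 0.22 (edgeR, adjusted p = 0.00271) and Tapbp of 1.22 ± 0.15 (edgeR, adjusted p = 0.00227). An edgeR adjusted p under 0.05 was common in this setting, found for 6815 of the 14109 genes, and young animal 15 was singled out on these same data. RT1-T24-3 and RT1-T24-4 were still lower, at -1.31 and -1.10, and Cd74 was then the other member that was lower. Leaving out aged animal 3 as well, a setting chosen after seeing the data, gave 7 of 14 class I, 4 of 6 class II and 9 of 11 other members higher, and 2, 0 and 1 lower, beside 27.2% higher and 26.2% lower of the 13863 genes then tested.

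Pathway genes outside the members were counted for each route, and the difference between the routes was not tested. Of 12 genes of the class I route, among them the chaperones Calr, Canx and Pdia3, the trimming peptidase Erap1 and the factors Irf1 and Irf2, 0 passed the limits in either direction by edgeR and 1, Irf2, had an unadjusted p under 0.05 (median log2 fold change 0.36). Of the 11 genes of the class II route 10 were tested, and by edgeR 5 were higher and 0 lower (median 1.43), beside 13.2% and 19.0% of all genes. Those were the endosomal proteases Ctss, Ctsl and Lgmn, which process antigens and the invariant chain, the thiol reductase Ifi30, which opens disulfide bonds of antigens, and Marchf1, a ligase that removes class II from the surface.

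Ctss was at 15.4, 12.4 and 45.3 CPM in young donor hearts and at 140, 95.8 and 76.6 CPM in aged donor hearts (log2 fold change 2.09 ± 0.55, edgeR, adjusted p = 0.0916). Ifi30 was at 54.3, 45.9 and 134 CPM and at 219, 199 and 164 CPM, a log2 fold change of 1.31 ± 0.44 (edgeR, adjusted p = 0.106). In both, all aged donor hearts were above the young ones, with young animal 15 the nearest. Rfx5 and Rfxank, which bind the class II promoter element beside the Y box shown above, had log2 fold changes of 0.14 and -0.29, and Rfxap was at 0 reads in all hearts. These proteases are also abundant in macrophages, whose 6 markers are given above, and the part of that cell type in the result was not tested.

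Markers of other cells that could carry class I also differed among the hearts. The 6 neutrophil markers summed to 5.38, 6.23 and 126 CPM in young donor hearts and to 1280, 304 and 649 CPM in aged donor hearts, with 5 of 5 tested higher. The 6 T and NK cell markers summed to 34.7, 30.5 and 77.3 CPM and to 136, 119 and 87.0 CPM, with 0 of 5 tested past the limits. Most of the rise in that sum was Cd8a, while Cd3e stayed at or under 1.71 CPM. Cd8a, Cd3e and Cd4 had positive log2 fold changes, and Nkg7 and Klrd1 had negative ones (-0.58 and -0.81). The 4 endothelial markers summed to 735 to 1140 CPM in young donor hearts and to 661 to 979 CPM in aged ones, with 0 of 4 past the limits, and of 4 fibroblast markers 1 was lower (Col1a1). Of the 7 cardiomyocyte markers 3 were lower (Myh6, Myl2 and Actc1). Over all genes tested 13.2% were higher and 19.0% were lower. The part of these cell types in the changes of the members was not tested.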

How the data were processed

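Polyadenylated RNA of 3 young and of 3 aged donor hearts was sequenced. The authors deposited a single table with raw counts of reads per gene, FPKM values and the gene length for each of 22250 genes. The counts as deposited are whole and not normalized. The FPKM values as deposited equal count over gene length over library total, within 0.1% in all but 1 of 133500 cells. The deposited gene length column was used for that check alone. The submitters' processing notes name HISAT2 2.0.5, StringTie 1.3.3b, featureCounts 1.5.0-p3, DESeq2 1.16.1, GATK 3.7 and Rnor_6.0, without a role for each. The use of strand and the treatment of reads with several matches are not given in the sources used here. Table columns of pathway and gene annotation were not used for tests.

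The count test was run in R 4.3.3 with edgeR 4.0.16 (filterByExpr by donor group, TMM, glmQLFit and glmQLFTest over all genes, no covariates), and in Python 3.11.15 with pandas 2.3.3. Adjusted p-values follow Benjamini and Hochberg over all genes tested. Standard errors were taken as the log2 fold change over the root of the F statistic. The limits of the study were a fold over 1.5 or under 0.67 at an unadjusted p under 0.05. With 3 hearts against 3 an exact permutation test cannot go below 0.1. FPKM ratios within a heart used no pseudocount. The labels give no litter or day. The edgeR p-values weigh the difference between the groups against the spread among hearts within them, estimated with information from all genes. The exact p-values rank a mean difference among all relabellings of the hearts.

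The members and all gene lists were chosen with earlier results of these data known. The genes named in full were the 12 members outside RT1 and RT1 genes with a mean of at least 10 CPM, with up to 5 lower RT1 genes past the limits, and every tested member could be named. Alternatives were DESeq2 1.42.0 size factors, library totals, 2 other filters on low counts (no filter, or 1 CPM in 3 hearts), the Wald test of DESeq2, limma-voom (limma 3.58.1), adjusted p-values, a pseudocount of 0.5 FPKM and leaving out each heart. Each step with a statistic was tested on simulated data. A gene of the class I route list is not reported here by name. Animal numbers do not pair hearts across groups. Depth was similar in the 6 hearts, and 3 reads gave 0.0985 to 0.191 CPM, which covers counting error only.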

Additional observations from a re-analysis of the deposited data

How the results depend on the processing

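Limits. With 3 hearts a group and 1 young donor heart near the aged ones, most calls turn on single hearts. All 4436 calls over all genes became 0 with adjusted p-values of edgeR, as did those of the members. With adjusted p-values of the DESeq2 Wald test, 2 class I, 2 class II and 2 other members were higher. There 2 class I members were lower, beside 1272 higher and 2220 lower of all 13784 genes. Leaving out 1 heart gave 2432 to 7214 calls over all genes, and leaving out young animal 15 and aged animal 3, chosen after seeing the data, gave 7396. Class I members higher numbered 2, and 4 with library totals or limma-voom, 1 to 7 without 1 heart and 7 without both hearts. Class I members lower numbered 3, and 1 with library totals and 1 to 3 without 1 heart. Class II members higher numbered 3, and 0 to 5 without 1 heart. Other members higher numbered 2, and 5 with DESeq2's Wald test, 4 with limma-voom, 0 to 9 without 1 heart and 9 without both, while those lower numbered 0, and 0 to 1 without 1 heart and 1 without both. The class I median of 0.46 was 0.28 to 0.68 without 1 heart, 0.17 with no filter and 0.82 with library totals. The class II median of 0.68 was 1.09 with library totals and 0.57 to 1.03 without 1 heart. Scaling by library totals moved the share of all calls that were higher from 40.9% to 68.6%. Of 22 named genes, 21 kept their direction in each of the alternatives run, and Ciita reversed to -0.05 without young animal 13 and to -0.10 without aged animal 4 (range -0.10 to 0.62). The cause of these changes was not tested. No paired analysis was possible because the groups share only 1 animal number, which marks different animals.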

Other observations

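The receptor for interferon gamma, the cytokine best known for inducing MHC genes, was higher in aged donor hearts in both chains, beside 13.2% of all genes tested. Ifngr1 was at 132, 136 and 126 CPM in young donor hearts and at 345, 187 and 222 CPM in aged donor hearts (log2 fold change 0.94 ± 0.28, edgeR, adjusted p = 0.0939). Ifngr2 was at 32.9, 35.5 and 61.2 CPM and at 104, 87.0 and 94.0 CPM, a log2 fold change of 1.14 ± 0.28 (edgeR, adjusted p = 0.0916). The groups did not overlap in either gene, and young animal 15 was the lowest heart for Ifngr1 and the highest young donor heart for Ifngr2. Ifng itself had at most 3 reads in any heart and was not tested. A part of interferon gamma in the levels of the members was not tested either.

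Of 6 class I-like genes outside RT1, 5 were tested and 1 was higher, beside 13.2% of all genes tested. That gene was Procr, the endothelial protein C receptor, at 15.2, 5.47 and 13.5 CPM in young donor hearts and at 26.7, 44.0 and 40.9 CPM in aged donor hearts (log2 fold change 1.70 ± 0.42, edgeR, adjusted p = 0.0916). Young animal 15 was within the range of the young donor hearts here. The other 4, Cd1d1, Mr1, Hfe and Fcgrt, had log2 fold changes of -1.04, -0.93, -0.69 and -0.56 and did not pass the limits. Cd1d1, which presents lipids to NKT cells, was at 32.8, 41.9 and 11.0 CPM in young donor hearts and at 14.3, 15.8 and 11.6 CPM in aged donor hearts, with young animal 15 below all of the aged donor hearts.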
